A study of Mus musculus with 4 samples.

Results

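The platelet-derived growth factor (PDGF) family of the gut stroma was followed through 7 genes. Of these, 3 encode receptors or a receptor-like protein (*Pdgfra*, *Pdgfrb*, *Pdgfrl*) and 4 encode ligands (*Pdgfa*, *Pdgfb*, *Pdgfc*, *Pdgfd*). They were taken by name from the 28692 gene rows of the count tables, and all 7 were found. The values come from mesenchymal stromal cells (MSC) of the lamina propria, the connective tissue under the gut epithelium, of small intestine and colon. The donors in all groups were untreated female C57BL6/Nrj mice of 8 to 10 weeks, and 3 mice were pooled per experiment. Each intestine gave 2 single-cell libraries (replicates 1 and 2). Live cells with integrin β1 had been sorted after exclusion of cells carrying blood (CD45, Ter119), endothelial (CD31), epithelial (EpCAM), glial (L1CAM) or BP3 surface markers.

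PDGFs are secreted dimers that bring together receptor tyrosine kinases at the cell surface. PDGFRα, the product of *Pdgfra*, binds PDGF-A, PDGF-B and PDGF-C, whereas PDGFRβ, the product of *Pdgfrb*, mainly binds PDGF-B and PDGF-D. In developing gut, PDGF-A from the epithelium acts on PDGFRα+ mesenchyme beneath it, and in many organs PDGF-B from endothelium draws PDGFRβ+ pericytes to vessels. *Pdgfrl* encodes a protein that resembles the outer part of the receptors and has no kinase domain.

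Each of the 7 is a protein-coding gene in GENCODE vM21, whose GRCm38 (mm10) coordinates are used here. *Pdgfra* (ENSMUSG00000029231) lies on chromosome 5 from 75152292 to 75198215, plus strand. *Pdgfrb* (ENSMUSG00000024620) lies on chromosome 18 and *Pdgfrl* (ENSMUSG00000031595) on chromosome 8 from 40926212 to 40990785, plus strand. The ligand *Pdgfa* (ENSMUSG00000025856) is also on chromosome 5, from 138976014 to 138997370 on the minus strand. *Pdgfb* (ENSMUSG00000000489) is on chromosome 15 from 79995874 to 80014977, minus strand. *Pdgfc* (ENSMUSG00000028019) is on chromosome 3 from 81036416 to 81214040 and *Pdgfd* (ENSMUSG00000032006) on chromosome 9 from 6168584 to 6378850, both on the plus strand. Genes on the opposite strand overlap *Pdgfra*, *Pdgfa*, *Pdgfb*, *Pdgfc* and *Pdgfd*. Among those with a row of counts, they held 7 UMIs (*Gm42802*), 233 UMIs (*6330403L08Rik*), 2 UMIs (*Gm16000*) and 1 UMI (*Ddi1*) over all cells.

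A UMI (unique molecular identifier) marks 1 captured transcript, and levels are given as CPM, the UMIs of a gene divided by all UMIs of the same class and library and multiplied by 1000000. Total depth was 14341443 to 52269372 UMIs per library, and 30685 cells remained after filters. Libraries of replicate 1 held fewer and deeper cells (1828 and 2399 cells, median 6965 and 8810 UMIs) than those of replicate 2 (14350 and 12108 cells, 2734.5 and 3878 UMIs). The Cell Ranger version followed the replicate number, and libraries shared 0 to 69 cell barcodes. Each cell was gated by marker genes, none of them a PDGF gene, as PDGFRαhi fibroblasts (FB) (4159 cells), CD81+ FB (4522 cells), remaining FB (9452 cells), smooth muscle cells (SMC, 1417 cells) or pericytes (149 cells). A further 10085 cells were left ungated. In all 4 libraries the markers of PDGFRαhi FB (9 of 9), SMC (6 of 6) and pericytes (6 of 6) were above a floor of 3 UMIs in their own class, and of the CD81+ FB markers 6 or 7 of 7 were. Pericytes of replicate 2 numbered only 22 in small intestine and 33 in colon. They also carried more RNA of the 6 general FB markers, at 16695 and 7659 CPM summed, than those of replicate 1 (1801 and 2561 CPM).

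*Pdgfra* was the most abundant of the 7 transcripts in the FB classes and, of the 5 classes, peaked in PDGFRαhi FB in 4 of 4 libraries. In PDGFRαhi FB, small intestinal replicates 1 and 2 held 2155 and 2032 CPM, and colonic replicates 1 and 2 held 991 and 686 CPM. In CD81+ FB the corresponding levels were 224, 234, 197 and 161 CPM, and in remaining FB 227, 206, 197 and 152 CPM. The lowest PDGFRαhi FB library thus lay above the highest library of both other FB classes, while CD81+ FB and remaining FB overlapped. The class is named for its PDGFRα, so this level checks the gate, which used *Bmp3*, *Bmp5*, *Bmp7*, *Wnt5a* and other genes but not *Pdgfra*.

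Classes were compared over the 4 libraries with library as a term (edgeR quasi-likelihood test, 11813 genes, Benjamini-Hochberg adjustment over all of them). Against remaining FB, *Pdgfra* was higher in PDGFRαhi FB by a log2 fold change of 2.58 (SE 0.59, adjusted p = 0.00625). In CD81+ FB the difference from remaining FB was 0.22 (SE 0.56, adjusted p = 0.910). In PDGFRαhi FB 2 of 6 members tested were called and in CD81+ FB 1 of 6, where 23.0% and 9.42% of all genes were called. *Pdgfb* had too few UMIs to be tested in any class. All contrasts with remaining FB share those cells, so they are not independent of each other.

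At the level of single cells, each cell was thinned to 1000 UMIs, which all cells reached, so that depth could not set the share of cells with a *Pdgfra* UMI. Among PDGFRαhi FB this share was 83.2% and 81.4% in the small intestinal libraries, against 61.3% and 46.8% in the colonic ones. Among remaining FB it was 24.6%, 18.7%, 16.8% and 14.1% in the same order of libraries. In endothelial cells, which should lack the gene, it was 0% of 338 cells in small intestinal replicate 1 (up to 1.09%, exact 95% binomial interval, which like all intervals here covers counting error only) and 0.847% of 236 cells in colonic replicate 1. The other libraries held only 1 and 23 endothelial cells. *Pdgfra* in CD81+ FB and remaining FB was therefore above the share seen in endothelial cells. Without thinning, 86.0% to 100% of PDGFRαhi FB and 40.2% to 71.5% of remaining FB had a *Pdgfra* UMI, with more such cells in the deeper libraries of replicate 1.

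**Figure D1:**
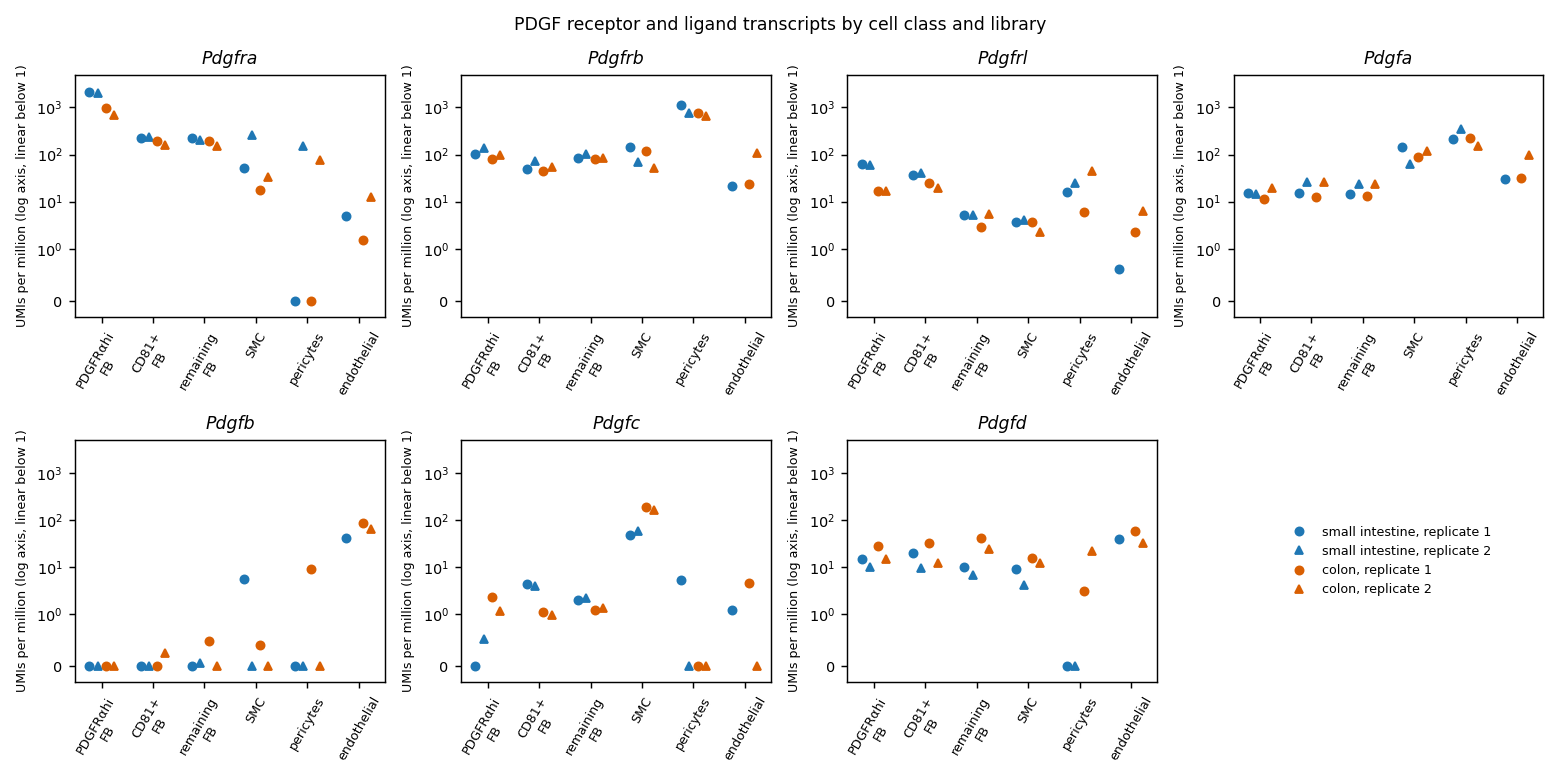
Levels of the 7 PDGF genes in CPM (vertical axis, logarithmic above 1) in 6 cell classes, 1 panel per gene. Each point is 1 library (circles replicate 1, triangles replicate 2; blue small intestine, orange colon), and classes with fewer than 20 cells in a library are not drawn. *Pdgfra* peaks in PDGFRαhi FB, *Pdgfrb* and *Pdgfa* in pericytes, *Pdgfc* in SMC and *Pdgfb* in endothelial cells.

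The distribution of *Pdgfra* UMIs over thinned PDGFRαhi FB differed between the intestines over its whole range. Cells with 3 UMIs were 22.6% and 18.0% of the class in small intestine against 6.83% and 3.69% in colon. Cells with 4 or more were 16.8% and 14.8% against 3.07% and 1.33%. Those with 0 UMIs were 16.8% and 18.6% against 38.7% and 53.2%. Every colonic library was thus shifted to lower values than both small intestinal libraries, and most colonic cells held 0 or 1 UMI.

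**Figure D2:**
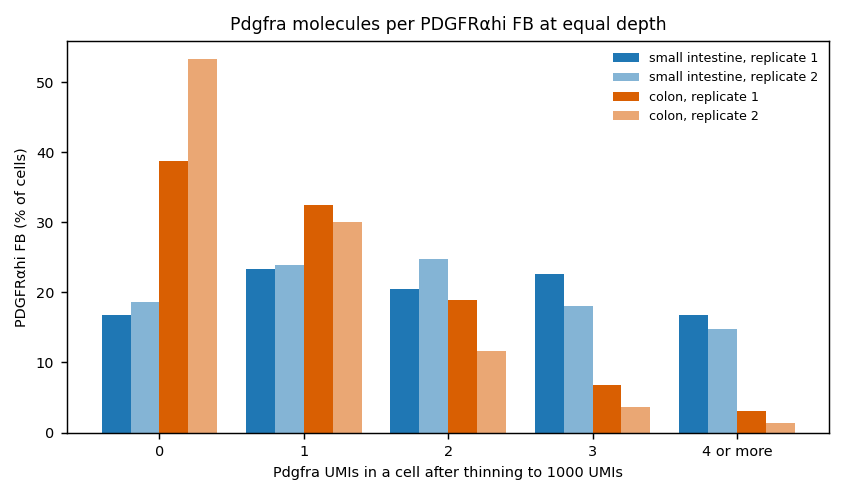
Share of PDGFRαhi FB (vertical axis, % of cells) with 0, 1, 2, 3 or 4 and more *Pdgfra* UMIs after thinning each cell to 1000 UMIs (horizontal axis). Bars are single libraries (blue small intestine, orange colon; full colour replicate 1, pale replicate 2), and both colonic libraries have more cells at 0 UMIs (38.7% and 53.2%) than both small intestinal ones (16.8% and 18.6%).

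Clustering of each library, done without the PDGF genes, gave a finer view of the same gene. Small intestinal PDGFRαhi FB formed 1 cluster in each library, with *Pdgfra* at 2134 and 1964 CPM. Colonic PDGFRαhi FB formed 4 clusters in each library, with *Pdgfra* at 915 to 1109 CPM in replicate 1 and at 576 to 856 CPM in replicate 2. The highest colonic cluster therefore remained below the lowest small intestinal one. Colonic clusters rich in *Cd9* and those rich in *Thbd* did not fall on fixed sides of this range. In replicate 1 the clusters with most *Cd9* (1094 and 994 CPM) held *Pdgfra* at 1086 and 1109 CPM, and those with most *Thbd* (1522 and 1697 CPM) held it at 915 and 936 CPM. In replicate 2 the clusters with most *Cd9* (1372 and 859 CPM) held it at 856 and 599.6 CPM, and those with most *Thbd* (762 and 700.3 CPM) at 787 and 576 CPM.

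The other receptor genes did separate these colonic clusters. *Pdgfrl* was at 33.6 and 28.5 CPM in the *Cd9*-rich clusters of replicate 1 and at 7.45 and 4.61 CPM in its *Thbd*-rich ones. In replicate 2 the values were 16.5 and 28.3 CPM against 10.7 and 9.93 CPM. *Pdgfrb* was at 101 and 94.7 CPM against 51.5 and 67.5 CPM in replicate 1, and at 155 and 104 CPM against 79.2 and 64.0 CPM in replicate 2. Both genes were thus higher in each *Cd9*-rich cluster than in each *Thbd*-rich cluster of the same library. These clusters were described after their values were seen and were not tested.

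Pericytes and, outside small intestinal replicate 2, SMC stood at the low end for *Pdgfra*. SMC held 51.5 and 255 CPM in the small intestinal and 17.3 and 33.5 CPM in the colonic libraries. In small intestinal replicate 2 SMC lay above every library of CD81+ FB and remaining FB and below PDGFRαhi FB. These SMC also held the most RNA of the 6 general FB markers (22219 CPM summed, against 6801 to 15773 CPM in the other libraries). The part of FB RNA in their *Pdgfra* level was not tested. With cells named by cluster, the same library gave 102 CPM. Against remaining FB the log2 fold change in SMC was -1.82 (SE 0.63, adjusted p = 0.0476), and the adjusted p rose above the threshold under 7 of 10 alternatives, to at most 0.248.

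In pericytes *Pdgfra* had 0 UMIs in both replicate 1 libraries, where a count of 0 allows up to 15.9 CPM in small intestine and 9.22 CPM in colon (taken as 3 UMIs of the class total). Replicate 2 gave 6 and 7 UMIs (151 and 77.6 CPM) in the pericytes that carried more FB marker RNA, and that RNA's part in these counts was not tested. Over all libraries the 13 UMIs amounted to a level 9.32-fold lower than in remaining FB, with a 95% counting interval of 5.45 to 17.5. The fitted log2 fold change was -3.22 (SE 0.95, adjusted p = 0.0258). It was not called without small intestinal replicate 1 (adjusted p = 0.171), without colonic replicate 1 (0.155), without colonic replicate 2 (0.0516) or with at least 1000 genes per cell (0.0513).

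*Pdgfrb*, the receptor that marks pericytes in many tissues, was highest in pericytes in 4 of 4 libraries. It reached 1137 and 754 CPM in small intestinal and 766 and 654 CPM in colonic pericytes. Remaining FB were at 83.8, 102, 82.0 and 85.3 CPM, PDGFRαhi FB at 101, 136, 79.1 and 96.1 CPM and CD81+ FB at 48.5, 73.7, 44.6 and 55.5 CPM. The pericyte libraries did not overlap with any of the FB classes, and CD81+ FB lay below both other FB classes within each library. The log2 fold change of pericytes was 2.98 against remaining FB (SE 0.27, adjusted p = 7.35e-07) and 3.002 against SMC (SE 0.28, adjusted p = 2.06e-06). Neither PDGFRαhi FB (0.05, SE 0.25, adjusted p = 0.933) nor CD81+ FB (-0.48, SE 0.25, adjusted p = 0.296) was called against remaining FB.

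In pericytes 4 of 6 members were called against remaining FB and 3 of 6 against SMC, where 22.9% and 17.3% of all genes were called. After thinning, 48.8%, 54.5%, 54.9% and 45.5% of pericytes had a *Pdgfrb* UMI, against 6.997% to 10.9% of PDGFRαhi FB and 0.424% to 1.48% of endothelial cells in the replicate 1 libraries. Without thinning the pericyte shares were 90.7%, 72.7%, 98.0% and 78.8% at median depths of 4489, 1348.5, 6004 and 2061 UMIs.

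In SMC *Pdgfrb* split by replicate number, at 147 and 119 CPM in replicate 1 and 67.9 and 52.7 CPM in replicate 2 (small intestine and colon). The 6 pericyte markers moved with it, at 740 and 395 CPM summed in SMC of replicate 1 and 144 and 130 CPM in those of replicate 2. The markers' part in the *Pdgfrb* level was not tested. SMC named by cluster held 80.6 and 77.6 CPM in small intestine and 45.7 to 62.9 CPM in colon, with no split by replicate number. SMC did not differ from remaining FB in the fit (log2 fold change -0.02, SE 0.26, adjusted p = 0.976).

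The balance of both receptors was taken as the share of *Pdgfra* among the summed *Pdgfra* and *Pdgfrb* UMIs of a class, so that it needs no correction for depth. Capture may differ between the 2 transcripts and between a 3′ and a 5′ kit, so the share is compared between classes and not read as a ratio of proteins. In PDGFRαhi FB the *Pdgfra* share was 95.5% and 93.7% in the small intestinal libraries and 92.6% and 87.7% in the colonic libraries, or 21.4, 14.9, 12.5 and 7.14 *Pdgfra* UMIs per *Pdgfrb* UMI. In CD81+ FB the share was 82.2%, 76.1%, 81.5% and 74.3%, and in remaining FB 73.0%, 66.8%, 70.6% and 64.1%. The order PDGFRαhi FB, CD81+ FB, remaining FB held within each of the 4 libraries. The mean difference was 13.9 percentage points between the first pair (SD 2.74, n = 4 libraries) and 9.92 between the second (SD 0.834).

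Pericytes were at the opposite end, with *Pdgfra* at 0% (up to 1.71%, exact 95% interval) and 16.7% (6.37 to 32.8) in small intestine and at 0% (up to 1.47%) and 10.6% (4.37 to 20.6) in colon. The small intestinal mean of 8.33% became 27.3% when cells needed at least 1000 genes, which left only 8 pericytes in small intestinal replicate 2. Gated SMC had no fixed balance, with *Pdgfra* at 25.9% and 79.0% in the small intestinal and 12.7% and 38.9% in the colonic libraries. With cells named by cluster, the mean SMC share was 54.6% in small intestine and 19.0% in colon. The replicates were then closer, with *Pdgfra* at 88.4 and 102 CPM beside *Pdgfrb* at 80.6 and 77.6 CPM in small intestinal SMC clusters. In colonic SMC clusters *Pdgfra* was at 8.26 and 0 CPM in replicate 1 and at 15.7 CPM in replicate 2. Their *Pdgfrb* was at 45.7 and 62.9 CPM and at 50.1 CPM. The 10 pairs of classes were compared within libraries by an exact sign-flip permutation test (two-sided), in which 4 libraries cannot give a p below 0.125. This smallest p was reached for 8 pairs (adjusted p = 0.156), and for CD81+ FB and remaining FB against SMC p was 0.25.

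**Figure D3:**
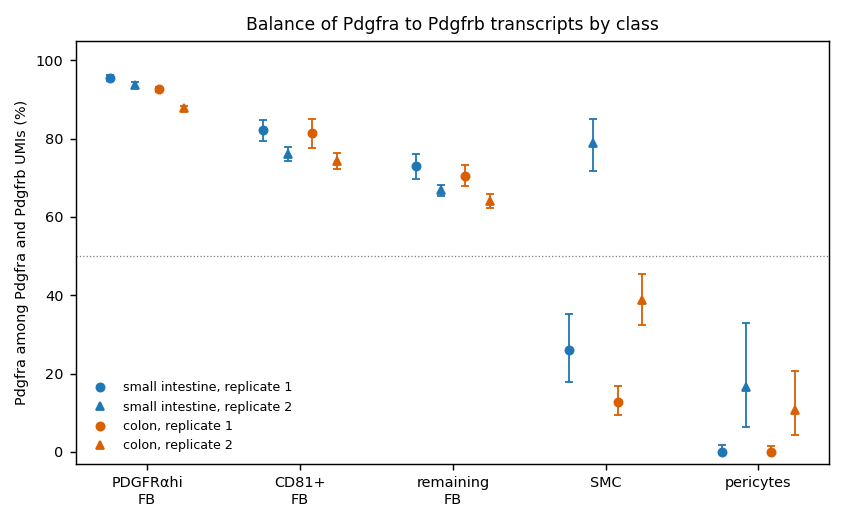
Share of *Pdgfra* among the *Pdgfra* and *Pdgfrb* UMIs (vertical axis, %) in 5 cell classes. Points are single libraries (circles replicate 1, triangles replicate 2; blue small intestine, orange colon), bars are exact 95% binomial intervals, and the dotted line marks equal UMIs. The 3 FB classes lie at 64.1% or above in all libraries and pericytes at 16.7% or below, while SMC are spread from 12.7% to 79.0%.

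Between the intestines the balance of PDGFRαhi FB fell from a mean of 94.6% in small intestine to 90.2% in colon with no overlap, but p was 0.333 (exact permutation test, two-sided, adjusted p = 0.833 over the 5 classes), the smallest that 2 against 2 libraries allow. In gated CD81+ FB, remaining FB, SMC and pericytes the ranges of the intestines overlapped (exact p = 0.667 to 1). Within each replicate number the share was lower in colon in PDGFRαhi FB, CD81+ FB, remaining FB and SMC, a paired order that this test does not use. The order of the replicate numbers was the same in each FB class and intestine, with a higher *Pdgfra* share in replicate 1.

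Single cells rarely showed both receptor transcripts. After thinning, 5.84% and 9.19% of small intestinal and 4.27% and 3.95% of colonic PDGFRαhi FB held a UMI of both. The product of both single shares would give 6.07%, 8.89%, 4.29% and 3.98%. In this class the measured values were thus close to those of 2 independent detections. In remaining FB 2.00%, 1.74%, 1.91% and 0.931% of cells held both, against products of 2.11%, 1.96%, 1.25% and 1.11%. In CD81+ FB the measured shares (0.308%, 1.20%, 0.513% and 0.654%) lay below the products (0.689%, 1.75%, 0.863% and 0.838%) in each library, which was not tested.

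**Figure D4:**
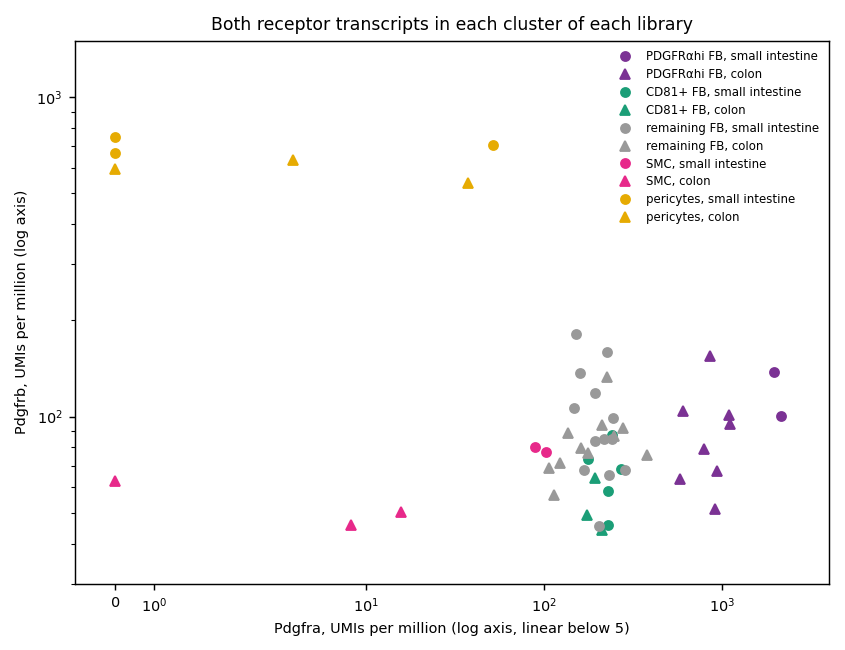
*Pdgfra* (horizontal axis) against *Pdgfrb* (vertical axis) in each cluster of each library, both in CPM on log axes. Circles are small intestinal and triangles colonic clusters, coloured by class. Pericyte clusters lie at 540 to 749 CPM of *Pdgfrb* with at most 51.6 CPM of *Pdgfra*, and PDGFRαhi FB clusters at 576 to 2134 CPM of *Pdgfra*.

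Remaining FB were split further by the markers of Fgfr2+ FB and of Igfbp5+ or CD90+ FB (at least 2 markers of one list and fewer than 2 of the other). *Pdgfra* varied little between these subsets, from 152 to 217 CPM in the first and from 124 to 227 CPM in the second over the 4 libraries. *Pdgfrb* was higher in the Fgfr2+ subset in small intestine (122 and 133 CPM, against 73.3 and 85.8 CPM in the other). In colon the subsets lay at 75.1 and 98.3 CPM against 75.4 and 82.7 CPM. These subsets held as few as 29 cells in a library and were not tested.

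*Pdgfrl* followed another pattern, being high in PDGFRαhi FB and CD81+ FB and low in remaining FB. PDGFRαhi FB held 62.0 and 59.0 CPM in the small intestinal and 17.0 and 17.0 CPM in the colonic libraries. CD81+ FB held 37.0, 40.03, 24.5 and 19.2 CPM, whereas remaining FB were at 5.09, 5.23, 2.95 and 5.39 CPM. Both classes lay above remaining FB in each library. The log2 fold change against remaining FB was 2.58 in PDGFRαhi FB (SE 0.26, adjusted p = 5.23e-07) and 2.74 in CD81+ FB (SE 0.26, adjusted p = 1.55e-06). In pericytes *Pdgfrl* rested on 10 UMIs (6.15 to 44.3 CPM), and its difference from remaining FB was 1.59 (SE 0.69, adjusted p = 0.106).

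CD81+ FB were not uniform for *Pdgfrl*. In small intestinal replicate 1 their clusters held 46.6 CPM and 11.7 CPM, and in replicate 2 64.1, 46.0 and 4.46 CPM. *Pdgfra* stayed between 177 and 269 CPM in these 5 clusters. The colonic CD81+ FB clusters held 32.7 CPM of *Pdgfrl* in replicate 1 and 16.3 and 18.1 CPM in replicate 2. In colonic replicate 2 a cluster of 323 cells named remaining FB reached 97.5 CPM of *Pdgfrl*, the highest value of any FB cluster, with 380.2 CPM of *Pdgfra*. Its best-scoring name was CD81+ FB, but the score (0.369) was below the 0.75 required of a named cluster.

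Among the ligands, *Pdgfa*, whose product binds PDGFRα, was highest in pericytes and next in SMC. It stood at 218 and 352 CPM in small intestinal and 224 and 155 CPM in colonic pericytes. SMC were at 142, 63.8, 90.3 and 120 CPM. The 3 FB classes held 11.6 to 26.0 CPM in all libraries, below every SMC and pericyte library. The log2 fold change against remaining FB was 3.39 in pericytes (SE 0.28, adjusted p = 1.14e-07) and 2.34 in SMC (SE 0.24, adjusted p = 7.96e-07). Pericytes exceeded SMC by 1.05 (SE 0.27, adjusted p = 0.0101), a call that was lost without colonic replicate 1 (0.91, SE 0.35, adjusted p = 0.128).

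In the thinned cells *Pdgfa* was found in 17.6% to 22.7% of pericytes and in 6.45% to 12.5% of SMC, against 0.513% to 2.45% of cells of the FB classes. Without thinning it was found in 30.3% to 67.4% of pericytes. Named by cluster, SMC held 41.3 to 123 CPM of *Pdgfa* and pericytes 229.6 to 309.6 CPM.

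Outside the MSC the highest *Pdgfa* was in the few cells gated as glia, which the L1CAM exclusion should have removed. They numbered 6, 2, 12 and 1 cells and held 1144, 1982, 679 and 352 CPM of *Pdgfa*, from 46, 8, 69 and 1 UMIs. The values from 8 UMIs and from 1 UMI have no useful precision.

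*Pdgfb*, the ligand of both receptors, was all but missing from the MSC classes. PDGFRαhi FB held 0 UMIs among 20843769, which allows up to 0.144 CPM by the same limit of 3 UMIs. The 3 FB classes together held 5 UMIs among 74620829 (0.0670 CPM, exact Poisson 95% interval 0.0218 to 0.156), and SMC and pericytes held 4 and 3. Endothelial cells that had passed the CD31 exclusion held 67 UMIs in small intestinal replicate 1 and 114 and 10 UMIs in colonic replicates 1 and 2, or 41.6, 85.6 and 64.0 CPM. They accounted for 83.8% of the 228 *Pdgfb* UMIs of all cells, and glia for 9.21%. The 21 glia held the higher level, at 141 CPM over all libraries against 61.5 CPM in endothelial cells, from 21 and 191 UMIs. Small intestinal replicate 2, with 1 endothelial cell, held 3 *Pdgfb* UMIs among 14350 cells.

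Endothelial cells were divided in turn. Their clusters in small intestinal replicate 1 held 61.1, 17.2 and 0 CPM of *Pdgfb* (250, 13 and 103 cells), and those of colonic replicate 1 held 109.7 and 3.38 CPM (177 and 63 cells). These are cells left by a sort that excluded endothelium, so they do not stand for the endothelium of the tissue.

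*Pdgfc*, a ligand of PDGFRα, had its highest level in SMC among these classes in 4 of 4 libraries. Small intestinal SMC held 47.9 and 57.6 CPM and colonic SMC 185 and 161 CPM. All FB classes held 0 to 4.41 CPM, and pericytes held 1 UMI in all. SMC contained 92.2% and 85.7% of all *Pdgfc* UMIs of the colonic libraries but 45.6% and 21.9% of those of the small intestinal ones. In small intestinal replicate 2 the more numerous remaining FB (26.6%), CD81+ FB (22.7%) and ungated cells (27.3%) each held more of them than SMC. Against remaining FB, SMC had a log2 fold change of 5.92 (SE 0.51, adjusted p = 9.44e-07). Pericytes were lower than SMC by a fitted log2 fold change of -6.41 (SE 1.27, adjusted p = 0.00273). From the UMIs alone they were 97.8-fold lower, with a 95% counting interval of 17.5 to 3868. The fitted value ranged from -12.46 (without small intestinal replicate 1) to -4.90 when 1 library was left out, and without colonic replicate 1 the call was lost (-4.90, adjusted p = 0.0680).

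In thinned cells *Pdgfc* was seen in 7.06% and 5.91% of small intestinal and in 15.5% and 15.3% of colonic SMC. Without thinning the shares were 22.4%, 14.5%, 59.5% and 36.9% at median depths of 6398, 2251.5, 8129.5 and 2940 UMIs. In remaining FB the thinned share was 0% to 0.213%. In SMC 4 of 6 members were called against remaining FB, *Pdgfc* and *Pdgfa* higher and *Pdgfra* and *Pdgfd* lower, where 26.5% of all genes were called.

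*Pdgfd*, whose product binds PDGFRβ, was low and spread over the FB classes. It was at 14.7, 10.0, 28.6 and 14.7 CPM in PDGFRαhi FB, at 19.7, 9.67, 32.9 and 12.02 CPM in CD81+ FB and at 10.2, 6.89, 40.5 and 23.6 CPM in remaining FB. No FB class was highest in all libraries. SMC were at 9.20, 4.12, 15.3 and 12.04 CPM, lower than remaining FB in each library (log2 fold change -1.02, SE 0.32, adjusted p = 0.0218). This call was lost without colonic replicate 1 (-0.74, adjusted p = 0.307) and in the DESeq2 Wald test (-0.95, adjusted p = 0.0725). Pericytes held 3 *Pdgfd* UMIs in all, a ratio to remaining FB of 0.277 with a counting interval of 0.0569 to 0.813 (fitted log2 fold change -2.59, SE 0.80, adjusted p = 0.0239). It was not called without small intestinal replicate 1 (adjusted p = 0.0592) or colonic replicate 1 (0.432). Endothelial cells held 39.7, 59.3 and 32.0 CPM, from 64, 79 and 5 UMIs.

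Next, colon was compared with small intestine within each class (n = 2 libraries each, edgeR quasi-likelihood test, adjustment over all genes). Members called were 0 of 5 tested in PDGFRαhi FB, 0 of 6 in CD81+ FB, 0 of 6 in remaining FB, 0 of 5 in SMC and 0 of 2 in pericytes. Of all genes 1.65%, 0.465%, 0.347%, 0.243% and 0.0% were called. At an unadjusted p under 0.05 there were 2, 2, 1, 2 and 0 members, beside 13.2%, 8.77%, 9.85%, 8.65% and 4.21% of all genes. The DESeq2 Wald test called 2, 0, 1, 1 and 0 members, beside 4.7%, 1.73%, 2.72%, 1.45% and 0.0% of the genes it gave an adjusted p.

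Libraries of the same replicate number shared a Cell Ranger version, so each ratio was also taken within a version and the fit repeated with it as a term. That fit called 3, 1, 1, 2 and 0 members, where 23.6%, 5.71%, 13.1%, 9.4% and 0.417% of all genes were called. It leaves 1 residual degree of freedom per gene, and a result called only by it rests on treating same-numbered libraries as alike, which the labels do not state.

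Within PDGFRαhi FB *Pdgfra* was lower in colon in both versions, at 0.460-fold in replicate 1 and 0.338-fold in replicate 2 of the small intestinal level. The fitted log2 fold change was -1.18 (SE 0.30, adjusted p = 0.152), and -1.19 (adjusted p = 8.32e-05) with the version as a term. The summed level of the 9 PDGFRαhi FB markers ran the other way, at 2318 and 2794 CPM in small intestine and 3276 and 2877 CPM in colon. In CD81+ FB and remaining FB the ratios were nearer to 1 (0.877 and 0.687, and 0.867 and 0.741). The difference of the *Pdgfra* effect between PDGFRαhi FB and remaining FB was -0.87 on the log2 scale (SE 0.87, adjusted p = 0.764), which this error does not separate from 0.

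*Pdgfrl* was lower in colonic PDGFRαhi FB as well, at 0.274-fold in replicate 1 and 0.288-fold in replicate 2. Its log2 fold change was -1.68 (SE 0.27, adjusted p = 0.0572), and -1.67 (adjusted p = 8.23e-16) with the version as a term. In CD81+ FB the ratios were 0.663 and 0.480 (log2 fold change -0.96, SE 0.26, adjusted p = 0.314, and 0.0341 with the version as a term). In remaining FB they were 0.578 and 1.03. The difference of the effect between PDGFRαhi FB and remaining FB was -1.50 (SE 0.36, adjusted p = 0.00836). It was -0.97 (SE 0.53, adjusted p = 0.456) with a stricter gate. In small intestinal PDGFRαhi FB the 6 SMC markers (521 and 499 CPM summed) and the 4 markers of Igfbp5+ or CD90+ FB (818 and 1187 CPM) were also above the colonic level (176 and 157, and 53.4 and 82.6 CPM). Of these 4, only 1 was above the floor of 3 UMIs in each small intestinal library, against 4 in each colonic one. Summed markers of immune cells (59.7 and 39.0 against 13.1 and 6.26 CPM) and interstitial cells of Cajal (ICC, 236 and 221 against 171 and 116 CPM) were higher too. Those of general FB (14621 and 13341 against 19473 and 17140 CPM) and Fgfr2+ FB (384 and 228 against 575 and 463 CPM) were lower. The part of these markers in the *Pdgfra* and *Pdgfrl* differences was not tested.

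The colonic *Pdgfd* level was above the small intestinal one in both replicates of each FB class. In remaining FB colon had 3.98-fold the small intestinal level in replicate 1 and 3.43-fold in replicate 2. The log2 fold change was 1.93 (SE 0.36, adjusted p = 0.152), and 1.86 (adjusted p = 0.00108) with the version as a term. In these cells the summed PDGFRαhi FB markers were also higher in colon (223 and 193 against 118 and 102 CPM). The general FB markers were lower there (28599 and 27317 against 33962 and 35537 CPM), and the part of either was not tested. In PDGFRαhi FB the ratios were 1.94 and 1.47 (adjusted p = 0.490, and 0.00716 with the version), and in CD81+ FB 1.67 and 1.24. The difference between the effects in PDGFRαhi FB and remaining FB did not pass the test (-0.92, SE 0.39, adjusted p = 0.218). The effect in CD81+ FB was smaller than in remaining FB by 1.45 on the log2 scale (coefficient -1.45, SE 0.33, adjusted p = 0.0137). *Pdgfd* was also higher in colon in both subsets of remaining FB. The Fgfr2+ subset held 9.23 and 4.93 CPM in small intestine (6 and 9 UMIs) against 28.9 and 27.5 CPM in colon. For the Igfbp5+ or CD90+ subset the values were 7.33 and 3.90 against 49.7 and 32.5 CPM. Its small intestinal values rested on 2 UMIs in each library, below the floor of 3 UMIs. This subset joins Igfbp5+ FB, which the authors named in small intestine, and CD90+ FB, which they named in colon.

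*Pdgfc* was higher in colonic than in small intestinal SMC, at 3.86-fold in replicate 1 and 2.79-fold in replicate 2. The log2 fold change was 1.73 (SE 0.30, adjusted p = 0.117), and 1.73 (adjusted p = 3.29e-05) with the version as a term. The effect was larger than in remaining FB by 2.39 (SE 0.45, adjusted p = 0.00557), and by 2.00 (SE 0.62, adjusted p = 0.155) with a stricter gate. The SMC markers were also higher in colonic SMC (9465 and 9041 CPM summed, against 6789 and 5787 CPM), and the 6 general FB markers lower (6801 and 9006 against 15773 and 22219 CPM). Their part in the difference was not tested. In CD81+ FB *Pdgfc* went the other way, from 4.41 and 3.95 CPM in small intestine to 1.11 and 0.991 CPM in colon (-2.10, SE 0.56, adjusted p = 0.279). These levels rested on 13 and 29 against 2 and 8 UMIs, and 2 UMIs lie below the floor of 3. In SMC named by cluster *Pdgfc* was at 47.2 and 46.5 CPM in the small intestinal and at 234, 119 and 176 CPM in the colonic clusters.

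Of the class by intestine terms, 1 of 6 members was called for PDGFRαhi FB, 1 for CD81+ FB, 1 for SMC and 0 for pericytes (0 also at an unadjusted p under 0.05). Of all 12310 genes 6.08%, 2.04%, 1.22% and 0.203% were called. In SMC *Pdgfra* was lower in colon, at 0.336-fold and 0.131-fold (log2 fold change -2.56, SE 0.81, adjusted p = 0.433, and 3.28e-05 with the version as a term), with the FB marker levels given above. This value was -0.98 (adjusted p = 0.913) without small intestinal replicate 2 and -1.53 without doublet removal, and it was called without colonic replicate 1 (-2.12, adjusted p = 0.0191) or colonic replicate 2 (-3.09, adjusted p = 0.000231). *Pdgfrb* was not called in any class, with log2 fold changes between -0.42 and -0.16 (SE 0.23 to 0.53). Its ratio was below 1 in both replicates of each of the 5 classes (0.673 to 0.978). *Pdgfa* was not called in any class either, and its ratios in SMC were 0.637 and 1.88 and in pericytes 1.03 and 0.441, opposite in the 2 versions.

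**Figure D5:**
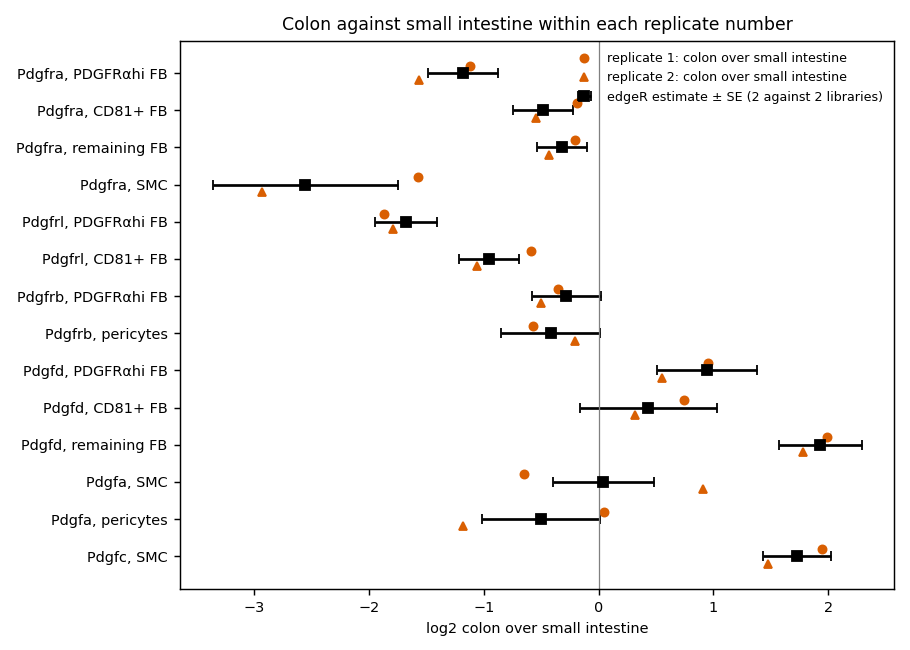
Colon over small intestine on a log2 scale (horizontal axis) for 14 pairs of a PDGF gene and a class. Black squares with bars are edgeR estimates ± SE over 2 against 2 libraries, and orange points are the ratios within replicate 1 (circles) and replicate 2 (triangles). *Pdgfra* and *Pdgfrl* of PDGFRαhi FB lie to the left of 0 and *Pdgfd* of remaining FB and *Pdgfc* of SMC to the right in both replicates, while *Pdgfa* of SMC has its replicates on both sides.

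Other genes of the pathway were read from 5 lists of 57 genes in all, of which 50 were tested between classes (*Vegfd* is listed also under its older symbol *Figf*, which alone has a row of counts). Genes of the lists called against remaining FB numbered 20 in PDGFRαhi FB (10 higher, 10 lower), 9 in CD81+ FB (4 and 5), 23 in SMC (4 and 19) and 14 in pericytes (8 and 6). Pericytes against SMC gave 15 (13 and 2). The median log2 fold change over the 50 genes was 0.03, 0.13, -0.51, 0.07 and 0.28 in these contrasts, against 0.00, -0.01, -0.02, -0.17 and -0.18 over all genes. Of all genes 10.0%, 4.9%, 12.4%, 9.63% and 7.31% were called higher in the 5 contrasts and 13.0%, 4.52%, 14.1%, 13.3% and 9.94% lower. In either direction these shares were 23.0%, 9.42%, 26.5%, 22.9% and 17.3%, beside which the counts of each list below stand. Between the intestines edgeR called 1 of 50 in PDGFRαhi FB and 1 of 47 in SMC.

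Ligand processing and binding, a list of 9, comprises proteases and co-receptors. Against remaining FB 8 were called in PDGFRαhi FB (4 higher), 2 in CD81+ FB (1 higher), 6 in SMC (1 higher) and 4 in pericytes (1 higher). *Plau* encodes urokinase, a protease able to activate PDGF-D. In PDGFRαhi FB it was at 8.53 and 5.79 CPM in the small intestinal and at 279 and 150.3 CPM in the colonic libraries (log2 fold change 5.06, SE 0.45, adjusted p = 0.0158). *Plat*, the tissue plasminogen activator that cuts PDGF-C, was higher in pericytes than in SMC by 3.36 (SE 0.34). *Nrp1*, a co-receptor, was lower in PDGFRαhi FB (-2.91, SE 0.26) and in SMC (-2.39, SE 0.27) than in remaining FB.

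The list that limits receptor signalling held 12 genes. In PDGFRαhi FB 4 rose and 0 fell against remaining FB, and in pericytes 4 rose and 0 fell. In SMC 0 rose and 6 fell, and in CD81+ FB 0 rose and 2 fell. *Spry4*, a feedback inhibitor of receptor tyrosine kinase signalling, was higher by 1.88 in PDGFRαhi FB (SE 0.28) and by 2.28 in pericytes (SE 0.36), and lower by a log2 fold change of -1.08 in SMC (SE 0.36). *Spry1*, of the same family, changed by 0.99, 1.14 and -1.28 in these classes and by -1.61 in CD81+ FB. *Dusp6*, an ERK phosphatase, was higher in PDGFRαhi FB (0.90, SE 0.21) and lower in SMC (-2.17, SE 0.30). These genes respond to many receptors, so their levels are not a measure of PDGF signalling.

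Of 18 receptor-proximal signalling genes, 4 were called in PDGFRαhi FB (1 higher), 2 in CD81+ FB (1 higher), 8 in SMC (2 higher) and 4 in pericytes (2 higher). These are 22.2%, 11.1%, 44.4% and 22.2% of the list, against 23.0%, 9.42%, 26.5% and 22.9% of all genes. The kinase gene *Fyn* was lower than in remaining FB in PDGFRαhi FB (-1.76, SE 0.23), SMC (-1.23, SE 0.24) and pericytes (-1.58, SE 0.37). *Stat3* was higher in pericytes (0.81, SE 0.18). Of the 12 related receptors and ligands 5 were tested, and the receptor genes *Kit*, *Csf1r*, *Flt3*, *Flt1*, *Kdr* and *Flt4* were not among them. In PDGFRαhi FB 3 were called (1 higher), in CD81+ FB 2 (1 higher), in SMC 3 (1 higher) and in pericytes 1 (0 higher). *Vegfa*, the angiogenic ligand, was higher in PDGFRαhi FB (1.42, SE 0.21) and lower in SMC (-1.90, SE 0.28). *Pgf*, its relative, was lower in PDGFRαhi FB (-2.65, SE 0.27), CD81+ FB (-1.23, SE 0.24) and SMC (-2.79, SE 0.34).

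Of 6 genes long known as induced by PDGF in cultured fibroblasts, 1 was called in PDGFRαhi FB, CD81+ FB and pericytes each and 0 in SMC. *Ccl2* was lower in PDGFRαhi FB (-2.65, SE 0.73), and *Myc* was higher in CD81+ FB (2.16, SE 0.47) and pericytes (2.08, SE 0.58). In SMC *Ccl2* was the gene of the lists called between the intestines, at 762 and 506 CPM in the small intestinal and 54.8 and 30.9 CPM in the colonic libraries (log2 fold change -3.87, SE 0.44, adjusted p = 0.0491).

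*Kit*, which lies 376701 bases from *Pdgfra* on the same strand and encodes a receptor of the same family, was at 0 to 2.63 CPM in PDGFRαhi FB. *Kit* was itself a marker of the ICC gate. That gate took *Kit*-positive cells with at least 2 ICC markers out of the other classes, so this low level was set in part by the gate. *Csf1r*, 15537 bases from *Pdgfrb*, was at 0 CPM in pericytes of 3 libraries and rested on 1 UMI in colonic replicate 2.

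Finally, the genes whose level was most like that of a member were sought over the 20 points of 5 classes and 4 libraries, among 6267 genes. For *Pdgfra* they were *Cdh11* (Pearson r 0.935 of log2 CPM + 10), *Myh10* (0.929) and *Col6a1* (0.926). For *Pdgfrb* they were *Stard8* (0.971), *Gng11* (0.964) and *Arap2* (0.962), and for *Pdgfa* *Fam212b* (0.970), *Lmcd1* (0.960) and *Mef2c* (0.953). The points share libraries and gates, so these values are descriptions without a p.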

How the data were processed

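Single-cell libraries of sorted lamina propria MSC were made with a 10x Genomics 3′ v3 or 5′ kit (which of them for each library is not given in the sources used here). The authors aligned the reads to mm10 with Cell Ranger 3.0.2 or 3.1.0, and per the file headers replicate 1 was processed with the first and replicate 2 with the second. The deposited tables hold UMI counts as whole numbers for each gene and barcode, and the authors did not normalize them. Members and gene lists were chosen with earlier results of these data known.

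A barcode was kept if it had 500 or more genes, 1000 or more UMIs and no more than 10% of its UMIs from mitochondrial genes (32216 of 34983), and 1531 doublets marked by scrublet in scanpy 1.11.5 (Python 3.11.15) were removed. A cell was gated when it expressed at least 3 markers of a class with a score of at least 0.6, and as remaining FB with at least 4 general FB markers and a score below 0.3 for the 4 other classes. Cells with markers of endothelium, ICC, glia, immune, plasma, epithelial or mesothelial cells were set aside. These thresholds were set after the marker distributions, but not the members, had been seen. Of the gated cells, 13.6% of PDGFRαhi FB, 6.37% of CD81+ FB, 1.27% of SMC and 0% of pericytes lay within 0.1 of the threshold. Leiden clusters of each library bearing the same name held 81.4% to 98.0% of the cells of a gate.

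UMIs were summed per library and class and tested with edgeR 4.0.16 (R 4.3.3, filterByExpr, TMM, quasi-likelihood test), with calls at an adjusted p under 0.05 over all genes. DESeq2 1.42.0 was an alternative. The procedure was tested on simulated data. Each library pools mice, so p-values measure the spread between such pools. Gene IDs matched the annotation for 28416 of 28692. Named were the 7 members, of the 5 pathway lists at most 3 called genes per list and comparison by size of the log2 fold change, and for *Pdgfra*, *Pdgfrb* and *Pdgfa* the 3 most correlated genes with a mean of at least 20 CPM. *Cd9*, *Thbd*, *Kit* and *Csf1r* lie outside this rule and were named with their values known. Alternatives were another test, scaling, filter, gate or clustering, a replicate block and leaving out each library.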

Additional observations from a re-analysis of the deposited data

Results flagged for a closer look

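Differences of the colonic effect between a class and remaining FB passed the test of the difference itself (edgeR quasi-likelihood test, class by intestine term, adjusted over 12310 genes) for 3 members. *Pdgfrl* in PDGFRαhi FB had a term of -1.50 on the log2 scale (SE 0.36, adjusted p = 0.00836), *Pdgfd* in CD81+ FB one of -1.45 (SE 0.33, adjusted p = 0.0137), and *Pdgfc* in SMC one of 2.39 (SE 0.45, adjusted p = 0.00557). In remaining FB *Pdgfrl* and *Pdgfc* rested on 12 to 82 and on 5 to 34 UMIs per library. Marker RNA of other classes differed between the intestines in PDGFRαhi FB, remaining FB and SMC as given above. With a stricter gate the terms of *Pdgfrl* (-0.97, adjusted p = 0.456) and *Pdgfc* (2.00, adjusted p = 0.155) no longer passed, while that of *Pdgfd* did (-1.67, adjusted p = 0.0174).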

How the results depend on the processing

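Between the intestines 0 members were called in each class. The DESeq2 Wald test called 2 in PDGFRαhi FB, 1 in remaining FB and 1 in SMC, and a fit without a low-count filter called 1 in each of these classes. A fit with the replicate block (the number, and so the Cell Ranger version, as a term) called 3, 1, 1 and 2 members in PDGFRαhi FB, CD81+ FB, remaining FB and SMC. Deviations of same-numbered libraries from their group means correlated at 0.816, 0.749, 0.826, 0.728 and 0.337 over the 5 classes, but the labels do not say that a number marks a shared batch, so the pairing rests on this hint and the Cell Ranger version. Over all genes 187, 53, 42, 24 and 0 were called between the intestines in the 5 classes (pericytes last), against 596, 219, 374, 155 and 0 by DESeq2 and 2677, 651, 1587, 927 and 11 with the block. Leaving out each library in turn gave 0 to 1 members in PDGFRαhi FB (1 without colonic replicate 1) and 0 to 2 in SMC (2 without colonic replicate 2) between the intestines. It gave 2 to 4 members in SMC and 2 to 4 in pericytes against remaining FB, and 1 to 3 in pericytes against SMC. Leaving out colonic replicate 1 gave the lowest of these class counts, equalled in pericytes against remaining FB without small intestinal replicate 1. Genes of the pathway lists called ranged from 5 to 9 in CD81+ FB, 15 to 20 in SMC and 9 to 13 in pericytes. A stricter gate left 0 members with a class by intestine term in PDGFRαhi FB and 0 in SMC. The *Pdgfra* share of small intestinal pericytes moved from 8.33% to 27.3% when cells needed at least 1000 genes, with only 8 pericytes left in replicate 2. No log2 fold change followed through the alternatives changed sign. The *Pdgfra* share of small intestinal SMC, with a mean of 52.5%, fell on both sides of equal UMIs when 1 library was left out (25.9% and 79.0%). Depth limits pericytes, where *Pdgfc*, *Pdgfd* and *Pdgfb* rested on 1 to 3 UMIs. The cause of these changes was not tested.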
